A study of Mus musculus with 2 samples.

Results

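The alpha-globin and beta-globin gene loci were examined for CTCF binding in mouse embryonic stem cells (ESC) and neural precursor cells (NPC). Members were all CTCF peaks, on mm9, with their centre in a beta-globin region of 350 kb (chr7:110800000-111150000) or in an alpha-globin region of 350 kb (chr11:32000000-32350000), chosen by position alone. They numbered 31 of 54151 ESC peaks and 31 of 51421 NPC peaks. Of these, 5 ESC and 3 NPC peaks lay in the beta region, and 26 ESC and 28 NPC peaks in the alpha region.

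The ESC were of the E14 line (IB10 cells), grown with serum in medium conditioned by BRL cells and supplemented with leukemia inhibitory factor, which keeps them undifferentiated. The NPC were derived from E14 ESC and grown with N2 supplement, basic FGF and EGF; no genetic change is named for either, and both come from the same line. Chromatin from each was immunoprecipitated with the same anti-CTCF antibody and sequenced on the SOLiD platform, giving 1 library per cell type and 1 deposited peak list per library. The header line of each list names CTCF but closes with the unexplained word CONTROL; the labels call the samples CTCF ChIP-seq, and the peaks are read here as CTCF peaks on that ground alone. With 1 library each, every difference is between these 2 libraries, has no replicate check and carries no p-value. The lists hold no read counts, so the depth is unknown, and they hold nothing against which the identity of the cells or the silence of the globin genes could be checked.

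Globin genes encode the chains of hemoglobin and are expressed in red-cell precursors, under distant enhancers that lie within each locus. The beta locus holds the embryonic Hbb-y and the adult Hbb-b1, and the alpha locus holds the embryonic Hba-x and the adult Hba-a1. CTCF is a zinc-finger protein that binds a long, directional DNA motif, and pairs of bound sites facing each other can anchor chromatin loops; sites flanking the globin loci are classic examples studied as insulators or boundaries. The comparison asks whether such sites were bound alike in these non-erythroid cell types.

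No mm9 gene annotation was used, so no peak was assigned to a gene, and the sequences under the peaks were not read. A RefSeq table on another build (GRCm38.p6) was used for gene order and promoter letters. In it the beta-globin genes sit among olfactory receptor genes, with Olfr67 next to Hbb-bt on one side and Olfr66 next to Hbb-y on the other; Hbb-b1 is listed apart from that run, where Hbb-bt and Hbb-bs hold the adult places. The alpha run is Hba-x, Hba-a1, Hbq1b, Hba-a2 and Hbq1a, between Nprl3, a widely expressed gene whose introns carry several alpha-globin enhancers, and Sh3pxd2b. The core of the CTCF motif, searched on both strands as CC, any 3 bases, AGG, any base and GGC, was present in 3.43% of all 32851 promoter windows (250 bases before to 50 after the start of each gene).

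Of the 10 protein-coding globin genes, 9 had a promoter in the table (all but Hbb-bh1), and 2 of these held the core: the theta-globin genes Hbq1b and Hbq1a. Among the 5 protein-coding genes on each side of each globin run, 18 of 20 had a promoter (all but Olfr632 and Rhbdf1), and Olfr66 alone held the core. The 3 stretches are shown because they are the places in these promoters where the letters of a CTCF site could be read; they are from RefSeq, GRCm38.p6, 5′ to 3′ on the strand of the gene (minus for Olfr66, plus for the others), with the core in capitals.
Hbq1b: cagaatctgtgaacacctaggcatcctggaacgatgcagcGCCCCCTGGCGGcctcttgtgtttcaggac
Hbq1a: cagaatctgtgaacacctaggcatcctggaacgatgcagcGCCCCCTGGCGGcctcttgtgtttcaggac
Olfr66: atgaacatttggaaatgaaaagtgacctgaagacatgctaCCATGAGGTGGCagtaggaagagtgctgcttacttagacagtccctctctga

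In both theta genes the match reads on the strand opposite to the gene and ends 19 bases before its start, and in Olfr66 it reads on the strand of the gene and ends 66 bases before it. The printed stretches of Hbq1b and Hbq1a are the same letter for letter, and the whole windows are identical at 286 of 300 positions. The promoters of the adult genes Hba-a1 and Hba-a2 share an unbroken run of 297 of 300 bases. These are duplicated genes, so short reads from one copy can match the other; how the authors placed such reads is not given in the sources used here, and its part in the peaks of the alpha region was not tested. A match of letters is a description and does not show binding.

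In the beta region, 3 CTCF sites were listed for ESC and NPC alike, and 2 further weak sites for ESC only. All 3 NPC peaks overlapped an ESC peak by at least 1 bp, and 3 of 5 ESC peaks overlapped an NPC peak (60.0%, exact Clopper-Pearson 95% interval 14.7 to 94.7, for counting error only). Such overlap was seen for 74.0% of the whole ESC list and 78.6% of the whole NPC list, and both fall inside the wide intervals of so few peaks (at least 29.2% for NPC). On the rest of chromosome 7 the shares were 74.9% of ESC and 80.4% of NPC peaks.

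Scores are the authors' own value for each peak, with no definition in the files, so they were read as percentiles within each list (the share of the list with a lower score). The strongest beta site lay at chr7:111091153-111091862 in ESC, with a score of 1309, and at chr7:111091211-111091650 in NPC, with a score of 1326. It stood at percentile 84.7 in ESC and 88.7 in NPC, and 83.4% of all 1-to-1 pairs of ESC and NPC peaks differed by more than this. This site ranked nearly the same in the 2 cell types.

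The next site, at chr7:110955273-110955929 in ESC and chr7:110955463-110955827 in NPC, scored 895 and 373. It stood at percentile 69.2 in ESC and 49.0 in NPC, a difference of -20.2 points (NPC minus ESC), which 37.2% of all pairs exceeded in size. The third shared site, at chr7:110941271-110941823 in ESC and chr7:110941357-110941753 in NPC, scored 295 and 184, at percentiles 33.3 and 25.1. The order of the 3 sites was therefore the same in both lists, and the site in the middle of that order was the one whose rank was lower in NPC by most.

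The 2 ESC-only peaks lay between the shared sites. One, at chr7:111021577-111022087, scored 235 (percentile 26.8) with the closest NPC peak 65749 bp away. The other, at chr7:111061457-111061884, scored 224 (percentile 25.4), with one 29326 bp away. Both were weak, and of the other ESC peaks in their score bin (the third of 10 bins of equal size) 47.4% had no NPC peak, so absence from the NPC list was common at such scores.

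**Figure D1:**
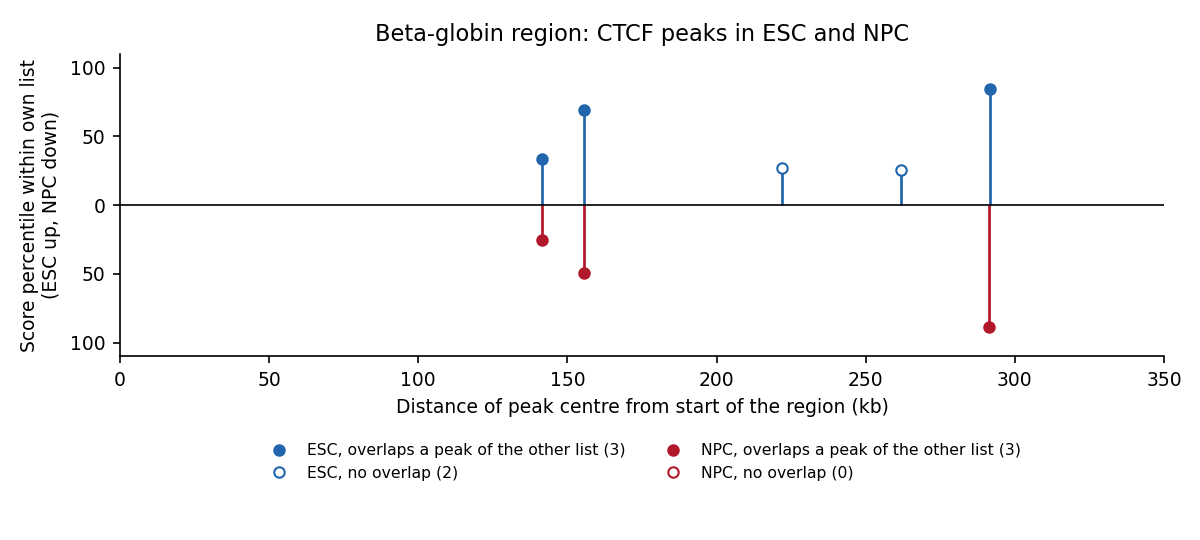
CTCF peaks of the beta-globin region by distance of their centre from the start of the region (kb, horizontal) and score percentile within their own list (vertical, ESC upward and NPC downward); filled points overlap a peak of the other list and open points do not. The 3 shared sites stand opposite each other, and the 2 open ESC points, at percentiles 26.8 and 25.4, have no NPC counterpart.

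The beta-globin sites stood in a long stretch with few CTCF peaks. Before the first site, no ESC peak was listed for 673 kb (chr7:110268430-110941270), and 0.423% of all ESC gaps between neighbouring peaks were longer. In NPC the same gap was 673 kb and 0.519% of gaps were longer. After the last site came a further gap of 256 kb in ESC and 257 kb in NPC, with 2.91% of gaps longer in each list. It ended at a shared site at chr7:111348049-111348891 in ESC, with a percentile of 97.5 in ESC and 86.9 in NPC. Inside the region the 2 ESC-only peaks broke a stretch of 135 kb that held no NPC peak, and 7.71% of NPC gaps were longer than that.

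The alpha region was dense in CTCF peaks in both cell types. Its 26 ESC and 28 NPC peaks compared with a median of 5 over all windows of 350 kb on the autosomes and chromosome X in either list, with 25th to 75th percentiles of 2 to 11 in ESC and 2 to 10 in NPC. Fewer peaks were found in 97.4% of 7547 ESC windows and in 98.97% of 7544 NPC windows. The beta region, with 5 and 3 peaks, lay near the middle, above 46.4% of ESC windows and 32.6% of NPC windows. Within the alpha region neighbouring peaks were a median of 7.98 kb apart in ESC and 8.30 kb in NPC, against 17.3 kb and 19.1 kb over the lists. The ESC median includes the gap to a peak centred just outside the region, and the NPC median does not.

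**Figure D2:**
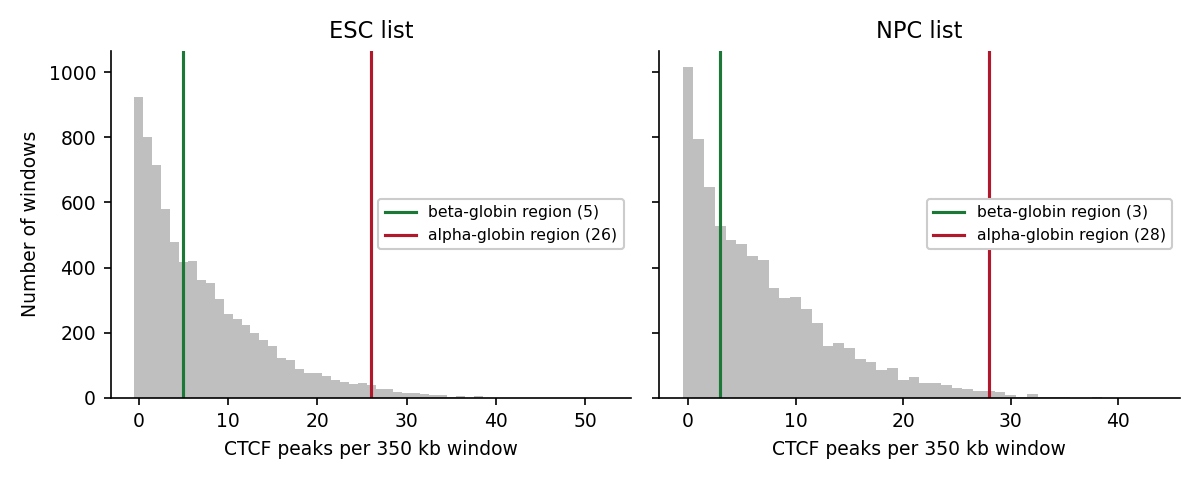
Number of windows of 350 kb (vertical) by the CTCF peaks they hold (horizontal), for the ESC list (left) and the NPC list (right), with lines at the counts of the globin regions. The alpha-globin region, with 26 and 28 peaks, lies in the sparse right end of both distributions, and the beta-globin region, with 5 and 3, near the median of 5.

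Most alpha sites were common to both lists. Of the 26 ESC peaks, 23 overlapped an NPC peak (88.5%, 69.8 to 97.6), and of the 28 NPC peaks, 23 overlapped an ESC peak (82.1%, 63.1 to 93.9). The list-wide shares, 74.0% and 78.6%, lay inside these intervals, as did the 72.7% of ESC and 80.2% of NPC peaks shared on the rest of chromosome 11. From the score bins of its peaks alone, 20.5 shared ESC peaks and 22.6 shared NPC peaks would be counted in the alpha region, against 23 in each.

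Alpha peaks ranked higher than the list as a whole, with a median percentile of 68.5 in ESC and 63.0 in NPC. In the top 10% by score stood 6 of 26 ESC peaks (23.1%) and 6 of 28 NPC peaks (21.4%), against 12.3% and 12.9% on the rest of chromosome 11. Of the 23 pairs, 10 were above percentile 75 in ESC and 11 in NPC, and the 10 were among the 11.

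The 5 strongest alpha sites by the mean of both percentiles included 3 in the later part of the region. The first of them lay at chr11:32242552-32243294 in ESC (score 2135, percentile 97.6) and chr11:32242379-32243245 in NPC (score 2243, percentile 98.2). Its neighbour at chr11:32240878-32241709 in ESC scored 1537 (percentile 90.5), and in NPC, at chr11:32241077-32241558, 1657 (percentile 94.1). The last of the 3 had other peaks between it and these. At chr11:32220990-32221821 in ESC and chr11:32221049-32221735 in NPC, it scored 1961 and 2326, at percentiles 96.5 and 98.4. All 3 sites were strong in both lists and differed by at most 3.58 percentile points.

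The other two of the 5 lay nearer the start of the region. One, at chr11:32040885-32041617 in ESC and chr11:32040925-32041472 in NPC, scored 1614 and 1756 (percentiles 91.9 and 95.2). The other, at chr11:32082360-32083036 in ESC and chr11:32082466-32082936 in NPC, scored 2199 and 1337. It was the alpha site with the highest score in ESC, at percentile 97.9, and it stood at 88.9 in NPC.

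The 3 weakest pairs were near the bottom of both lists. At chr11:32123291-32123697 in ESC the score was 121 (percentile 6.25), and at the matching NPC peak, chr11:32123317-32123721, it was 106 (percentile 2.30). The pair at chr11:32140405-32140641 in ESC and chr11:32140318-32140657 in NPC scored 122 and 142, at percentiles 6.42 and 14.7. The third, at chr11:32185841-32186279 in ESC and chr11:32185893-32186134 in NPC, scored 182 and 154, at percentiles 19.1 and 18.2. These sites were chosen among paired peaks, so their listing in both cell types follows from that choice. The lowest ESC score bin held 3 alpha peaks: the first 2 of these and the unshared peak at chr11:32345219-32345544. Of the ESC peaks in that bin outside the globin regions, 66.9% had no NPC peak.

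The 3 alpha pairs with the largest shifts were all lower in NPC. At chr11:32009718-32010377 in ESC the score was 568 (percentile 52.9), and at chr11:32009964-32010283 in NPC it was 132 (percentile 11.8), a difference of -41.1 points. At chr11:32101011-32101381 in ESC and chr11:32100995-32101271 in NPC the scores were 482 and 121, and the percentiles 47.8 and 7.95. At chr11:32087056-32087715 in ESC and chr11:32087254-32087604 in NPC they were 930 and 240, at percentiles 70.6 and 34.5. Shifts larger than these 3 were seen at 9.77%, 10.7% and 14% of all pairs, so they were large for this region but not rare over the lists.

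The next largest shifts went the other way. The pair at chr11:32234006-32234483 in ESC and chr11:32234133-32234552 in NPC scored 163 and 256, at percentiles 15.7 and 36.7. The pair at chr11:32138337-32139031 in ESC and chr11:32138363-32139023 in NPC scored 1162 and 1698, at percentiles 80.0 and 94.6. The remaining 10 pairs had ESC percentiles of 29.1 to 94.5 and NPC percentiles of 37.3 to 97.6, with differences between -11.0 and 13.9, of which 6 were higher and 4 lower in NPC.

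Over all 23 alpha pairs the median difference in percentile was 1.95 points (95% interval of the median from order statistics -3.96 to 8.21), with 13 higher and 10 lower in NPC. That interval treats neighbouring peaks as independent, and it does not measure the uncertainty of a difference between the cell types. Over the 39569 pairs outside the globin regions the median difference was -1.19, with 47.1% higher in NPC. Spearman's rho between ESC and NPC scores over the 23 alpha pairs was 0.87, against 0.62 across the other pairs; points of both come from the same 2 libraries, and this is a description only. The 26 pairs of both regions had a median shift of 8.19 points in size, against 14.5 over the other pairs and 15.1 at the median of pairs with like ESC percentiles (within 5 points). Of the 26, 17 had a smaller shift than the median of such like pairs, and 24 had an NPC percentile between the 5th and 95th percentiles of those pairs. By definition that range leaves out only 5% of like pairs at each end, so most pairs fall inside it. Shifts over 20 points were seen at 5 of 26 globin pairs (19.2%) and at 37.6% of the others; these contrasts have no test.

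**Figure D3:**
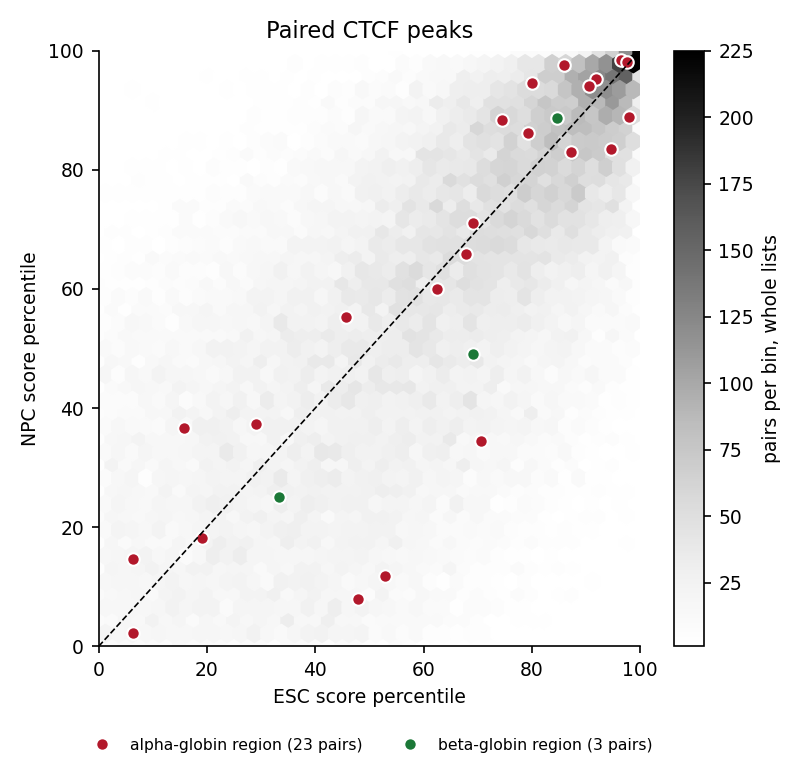
Score percentile in ESC (horizontal) and NPC (vertical) of CTCF peaks matched 1-to-1; grey cells count all pairs of the lists, points mark the 23 alpha-globin and 3 beta-globin pairs, and the dashed line marks equal percentiles. Most globin pairs lie near the line, and 3 alpha points lie well below it, with NPC percentiles of 7.95, 11.8 and 34.5. A beta point (69.2 in ESC, 49.0 in NPC) and an alpha point (15.7 in ESC, 36.7 in NPC) also differ by over 20 points.

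The direction of the shifts differed along the alpha region, a split chosen after the values were seen. Of the 9 pairs in the first 110 kb, 7 were lower in NPC, with a median difference of -8.99 points and a lowest of -41.1. Of the 14 pairs beyond it, 11 were higher in NPC, with a median of 5.29 points and a highest of 21.0. Over the other pairs of chromosome 11, 45.9% were higher in NPC. As the cut followed the values, the contrast between the parts is a description only and was not tested. In the order of the gene table, the globin run lies beyond Il9r, Snrnp25, Rhbdf1, Mpg and Nprl3; where each part lies relative to these genes was not determined here.

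The sites listed in 1 cell type were mostly weak. All 5 ESC-only peaks of the globin regions and 4 of 5 NPC-only peaks were below the median score of their list, as were 90.5% and 88.3% of the unshared peaks elsewhere. In the alpha region the ESC-only peaks were at chr11:32004626-32005205 (score 249, percentile 28.4), chr11:32104785-32105362 (score 325, percentile 36.1) and chr11:32345219-32345544 (score 101, percentile 0.141). The nearest NPC peaks were 1066, 3513 and 4487 bp away. None of the 3 was strong in ESC, and the last stood just above the lowest score in the list.

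The exception was an NPC-only peak at chr11:32147000-32147534, with a score of 666 and a percentile of 67.0. The nearest ESC peak was 6358 bp away. Of the 16958 NPC peaks outside the globin regions that scored at least as high, 333 (1.96%) had no ESC peak, and in its own score bin 6.75% had none. It was the strongest unshared peak of either globin region.

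The other 4 NPC-only peaks were weaker. One, at chr11:32006272-32006754, scored 383 (percentile 49.8) and lay 1066 bp from the ESC-only peak at chr11:32004626-32005205, so neighbouring positions were listed in the 2 cell types without overlapping. The others were at chr11:32018881-32019304 (score 183, percentile 24.6), chr11:32130289-32130494 (score 119, percentile 7.56) and chr11:32298415-32298734 (score 154, percentile 18.0). They lay 8503, 6291 and 22934 bp from the nearest ESC peak.

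**Figure D4:**
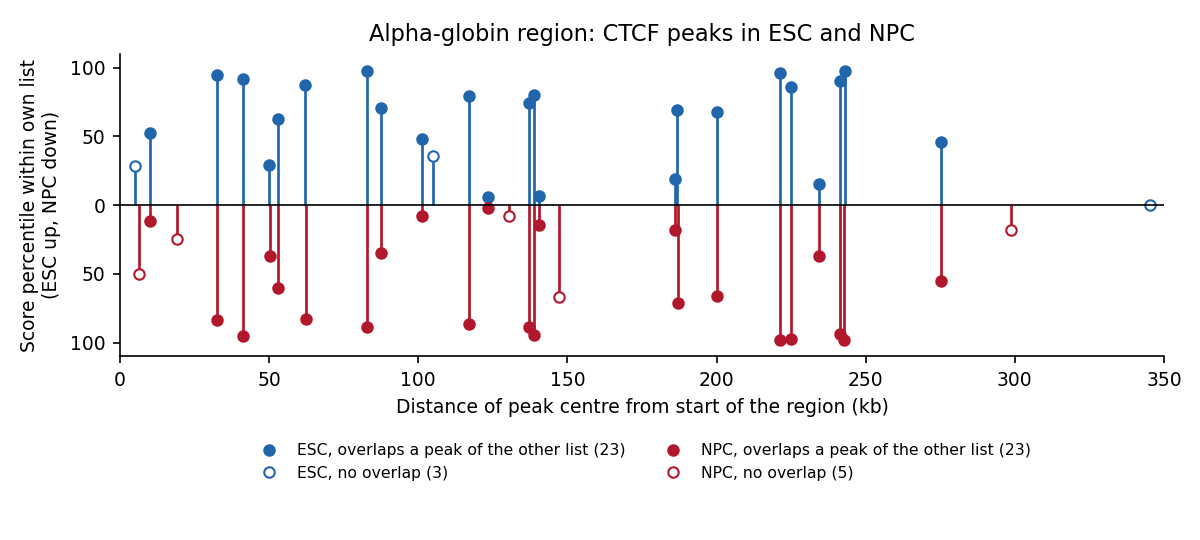
CTCF peaks of the alpha-globin region by distance of their centre from the start of the region (kb, horizontal) and score percentile within their own list (vertical, ESC upward and NPC downward); filled points overlap a peak of the other list and open points do not. The 23 shared sites mirror each other in most places, and the tallest open point is the NPC peak at percentile 67.0.

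Closely spaced peaks, looked for after the values were seen, were a shared feature of the alpha region. Gaps under 1 kb between neighbouring peaks numbered 3 of 26 in ESC and 3 of 27 in NPC, against 5.98% and 5.57% of all gaps. The 26 ESC gaps include the gap to a peak centred just outside the region, and the 27 NPC gaps do not. Gaps under 1 kb were few, in a region where peaks were dense. Its median gaps were 7.98 kb in ESC and 8.30 kb in NPC, against 17.3 kb and 19.1 kb over the lists. Whether short gaps go beyond that density was not tested. The gaps under 1 kb were at the same 3 places in both lists. The peaks at chr11:32136786-32137555 and chr11:32138337-32139031 in ESC were 781 bp apart, and their NPC counterparts 876 bp. Those at chr11:32240878-32241709 and chr11:32242552-32243294 were 842 bp apart in ESC and 820 bp in NPC. Those at chr11:32185841-32186279 and chr11:32186553-32187226 were 273 bp apart in ESC and 529 bp in NPC.

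The last of these peaks resembled another one downstream, a pair singled out after the values were seen. The peak at chr11:32186553-32187226 scored 895 in ESC and its counterpart 756 in NPC, at percentiles 69.2 and 71.1. The peak at chr11:32199738-32200394 scored 866 in ESC and its counterpart 644 in NPC, at percentiles 67.9 and 65.9. Both were of middle strength and differed by less than 2 percentile points between the cell types. Like percentiles were also seen at other alpha peaks, near the top of both lists. The peaks at chr11:32220990-32221821 and chr11:32242552-32243294 stood at percentiles 96.5 and 97.6 in ESC, and their counterparts at 98.4 and 98.2 in NPC. Whether reads shared between duplicated genes play a part at any of these peaks was not tested.

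Positions were close between the lists, though centres lay slightly further apart than over the other pairs. Centres of the alpha pairs were a median of 43.5 bp apart and those of the beta pairs 44 bp, against 32 bp over the other pairs. NPC peaks were narrower at 21 of 26 globin pairs (80.8%), as at 87.4% of the others. The exception in position, singled out after the values were seen, was the ESC peak at chr11:32061296-32062702, which was 1407 bp wide, a width that 0.244% of ESC peaks reached. Its NPC counterpart, at chr11:32062038-32062722, overlapped 665 of its 1407 bp, at the end with the higher coordinates, with centres 381 bp apart. The pair stood at percentiles 87.2 in ESC and 83.0 in NPC.

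A strong site lay at the edge of the alpha region and was not counted as a member. Its ESC peak, chr11:32349909-32350677, scored 1272 (percentile 83.6) and its NPC peak, chr11:32350032-32350683, scored 1166 (percentile 84.8). On the other side the nearest peaks outside were 149939 bp before the edge in ESC and 99383 bp in NPC, so that the dense run of alpha sites began within the region in both cell types.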

How the data were processed

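The data were 1 CTCF ChIP-seq peak list from ESC and 1 from NPC. Peaks were called by the authors with MACS on each library, per the file headers, with coordinates on mm9, as the submitters' processing notes state; aligner, control sample, calling threshold and program version are not given here. Why both header lines end in CONTROL is not explained in the files. The score of each peak is the value the authors deposited, with no unit stated. Depth is unknown, so intervals cover counting error over peaks only. Percentiles, overlaps (at least 1 bp), 1-to-1 pairs, gaps and windows were computed in Python 3.11.15 (scipy 1.17.1, pandas 2.3.3, numpy 2.4.6); the search for overlaps was checked on peaks moved by known distances. The regions and comparisons were chosen with earlier results of these data known. All beta peaks are named; of the alpha peaks, all unshared ones, the 5 highest and 3 lowest pairs by mean percentile and the 5 largest shifts. A further 4 alpha pairs were named after their values were seen, for close spacing, like scores or width. The planned motif search in peaks needs mm9 sequence and was not run; promoters were searched instead, added after seeing the data. Plots used matplotlib 3.10.9.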

Additional observations from a re-analysis of the deposited data

How the results depend on the processing

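Sharing was recounted under 8 other settings and percentiles under 5. Restricting the members to the 50% of their list with the highest scores left 1 beta NPC peak and 15 alpha NPC peaks shared, of 1 and 16; the ESC counts were 2 of 2 and 16 of 16. The other 60 recomputed values stayed within 1.5 times of the count or within the interval or range of the pairs. With 50% reciprocal overlap, or centres within 100 bp, 21 alpha peaks of each list were shared. The median NPC minus ESC percentile was between -9.68 and -3.46 in beta and between 1.14 and 2.39 in alpha. No paired analysis was possible because each cell type has 1 library, and no library could be left out.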
